A study of Mus musculus with 6 samples.

Results

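Pmp2 and the fatty acid binding protein genes Fabp3, Fabp4, Fabp5, Fabp9 and Fabp12 were followed in Melan-a cells after transfection with an siRNA against Dicer. The 6 genes were taken by symbol from 7661 genes with a named transcript cluster in the value table. This table covers chromosomes 1 to 4 only, so every rank, share and list below refers to those chromosomes. Pmp2 was singled out because it was lower in siDicer cells in these same data, and the others were added as its relatives, so the differences between siDicer and siScr given here for the 6 genes are a description with no test. Melan-a is an immortalised line of pigmented mouse melanocytes from C57BL/6. The arrays read 3 siDicer samples (siRNA against Dicer, the ribonuclease that matures microRNAs) and 3 siScr samples (control siRNA), all grown with 200 nM of the phorbol ester TPA, given 50 pmol of siRNA and labelled 48 h after transfection, although the treatment protocol describes a medium change at 6 h and lysis 24 h later. Replicates 1, 2 and 3 of each group are passages 47, 54 and 56 of the line, and the labels call all samples female with an RNA integrity number of 10.0. All values come from 1 cell line, and an siRNA lowers a transcript without removing the gene. Dicer1 itself was not analysed here, so the depth of the knockdown is not measured in these values.

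Fatty acid binding proteins are small cytoplasmic proteins that hold a long-chain fatty acid inside a barrel of beta strands and carry it between membranes, enzymes and nuclear receptors. Pmp2, also called myelin protein P2, is the member that sits on the cytoplasmic face of peripheral nerve myelin, where it binds lipid bilayers, and Schwann cells share their neural crest origin with melanocytes. Fabp5 is the epidermal member, Fabp3 the heart and muscle member, Fabp4 the adipocyte and macrophage member and Fabp9 the testis member. Fabp12 is a further relative in the same gene cluster. In RefSeq order Fabp5, Pmp2, Fabp9, Fabp4 and Fabp12 follow each other on chromosome 3 with no other protein-coding gene between them, and Fabp3 lies on chromosome 4.

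Signals are on a log2 scale, by transcript cluster, so a difference of 1 is a 2-fold change, and levels of different genes are not set against each other because their probes differ. A gene was called dim, and left out of the tests, when its mean over the 6 arrays lay under the 30th percentile of all genes, a log2 signal of 4.15. Pmp2, Fabp5 and Fabp3 passed this filter, and Fabp4, Fabp9 and Fabp12 did not. The 6 array medians ran from 4.63 to 4.68, and the correlation between any 2 arrays over 16383 transcript clusters was at least 0.993. The melanocyte markers with a value, Tyrp1, Pax3 and Slc24a5, were all far above the dim threshold, with mean log2 signals of 12.81, 10.48 and 10.59 in siDicer cells and 12.86, 10.60 and 10.85 in siScr cells.

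Pmp2 transcript (cluster TC0300003223.mm.1) was about 2-fold lower in siDicer cells at every passage. Its log2 signal was 7.27, 6.94 and 7.43 in siDicer cells at passages 47, 54 and 56, against 8.53, 7.76 and 8.40 in siScr cells at the same passages. The groups did not overlap: the highest siDicer array, at passage 56, lay 0.33 below the lowest siScr array, at passage 54. Groups without overlap and with siDicer lower, whatever the size of the gap, were found in 7.81% of tested genes. The means were 7.22 ± 0.25 in siDicer and 8.23 ± 0.41 in siScr (SD, n = 3 each), a log2 difference of -1.01 and a fold of 2.02. Within passages the difference was -1.25 at passage 47, -0.82 at passage 54 and -0.97 at passage 56, which are 1.77-fold to 2.38-fold lower levels. Among 5363 tested genes only Kcnj13, a potassium channel, had a lower difference, at -1.43.

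The limma standard error of the Pmp2 difference was 0.20 in the fit of siDicer against siScr over 6 arrays and 0.089 with passage as a block. Like every SE given here it is moderated, which means that limma draws a gene's variance towards that of other genes. The passage differences of Pmp2 themselves had an SD of 0.22 (n = 3). Of the 3 tested members, 0 were called in the fit without the block, where the background was 0.0186% of genes (1 gene, at an adjusted p under 0.05 with limma), and 1, Pmp2, was called with the block, where the background was 1.73% in either direction, 0.597% for lower and 1.14% for higher genes. Pmp2 was chosen on this contrast, so nothing is read from its call, or from its calls under the alternatives that follow. With the block, Pmp2 was no longer called when both arrays of passage 47 were left out (difference -0.89), and it was called without passage 54 (-1.11) and without passage 56 (-1.04). It was also called with the block when dim genes were kept in. Without the block it was called only with array weights (-1.19). Leaving out single arrays gave differences from -1.25, without siScr replicate 2, to -0.87, without siScr replicate 1.

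**Figure D1:**
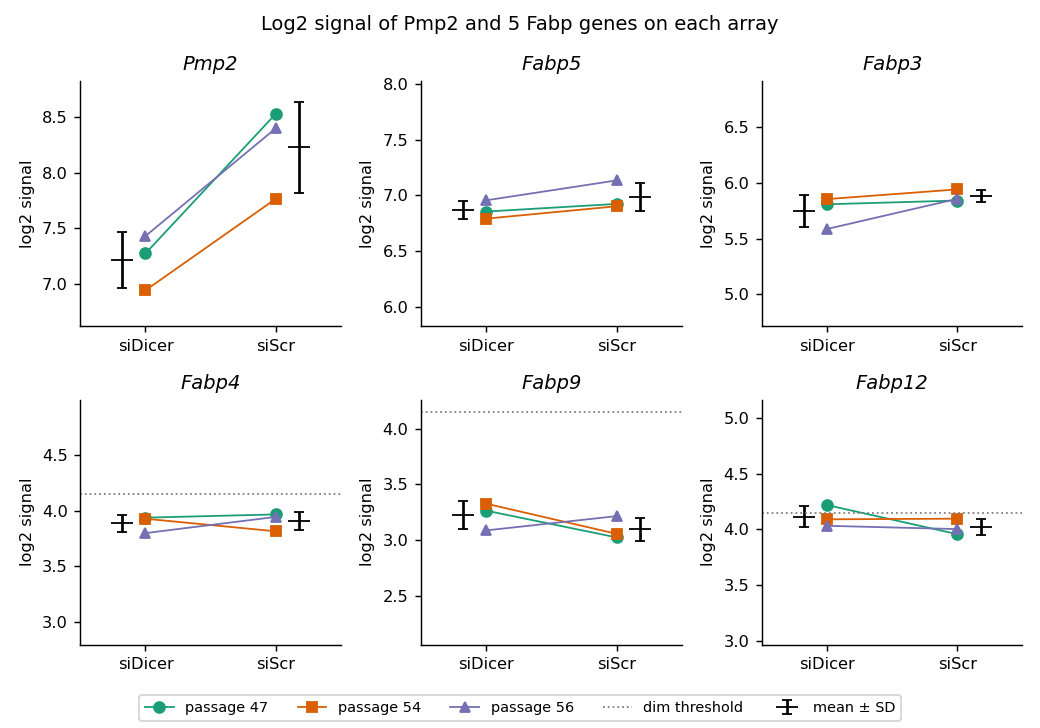
Log2 signal of Pmp2 and the 5 Fabp genes on each array, with siDicer left and siScr right in each panel. Lines join arrays of the same passage, black bars are means ± SD (n = 3), every panel spans the same range of log2 units, and the dotted line is the dim threshold of 4.15. Only the Pmp2 panel has groups that do not overlap.

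Fabp5, which carries fatty acids to nuclear receptors and is abundant in skin, differed little between siDicer and siScr cells. Its log2 signal (TC0300000060.mm.1) was 6.85, 6.79 and 6.95 in siDicer cells at passages 47, 54 and 56, against 6.92, 6.90 and 7.13 in siScr cells. The siDicer array was the lower of each passage pair, but the groups overlapped, because the siDicer array of passage 56 exceeded the siScr arrays of passages 47 and 54. The means were 6.87 ± 0.083 in siDicer and 6.99 ± 0.13 in siScr (SD, n = 3 each), a difference of -0.12 ± 0.085 (SE) or a fold of 1.09. The passage differences were -0.069, -0.11 and -0.18. A gene lower in siDicer at all 3 passages is common in these data: 20.0% of tested genes were, and 16.1% were higher at all 3.

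Fabp3, the cytoplasmic fatty acid carrier of heart and skeletal muscle, has 2 transcript clusters in the table. The brighter, TC0400003630.mm.1, had log2 signals of 5.81, 5.86 and 5.59 in siDicer cells at passages 47, 54 and 56, against 5.84, 5.94 and 5.86 in siScr cells. The groups overlapped by 0.013, and the siDicer array of passage 56 was the lowest. The difference was -0.13 ± 0.082 (SE), with passage values of -0.033, -0.087 and -0.27, and it came to -0.049 without siDicer replicate 3. The other cluster, TC0400001543.mm.1, had log2 signals of 5.14, 5.19 and 5.17 in siDicer and 5.16, 5.36 and 5.27 in siScr. Its difference of -0.096 had the same direction, with overlapping groups.

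The other 3 genes of the cluster stayed dim in siDicer and siScr cells alike. Fabp4, a defining gene of fat cells, had log2 signals of 3.94, 3.93 and 3.80 in siDicer cells at passages 47, 54 and 56, against 3.97, 3.81 and 3.94 in siScr cells. Fabp9, the testis form, had 3.26, 3.33 and 3.09 in siDicer against 3.02, 3.05 and 3.21 in siScr. Fabp12 had 4.22, 4.09 and 4.03 in siDicer against 3.96, 4.09 and 4.001 in siScr. All 6 arrays of Fabp4 and Fabp9 and 5 of the 6 arrays of Fabp12 lay under the dim threshold, the exception being the siDicer array of passage 47 for Fabp12. The differences were -0.021 for Fabp4, 0.13 for Fabp9 and 0.095 for Fabp12, each with a mixed sign over the passages and overlapping groups, and at such signals they may not follow transcript level.

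**Figure D2:**
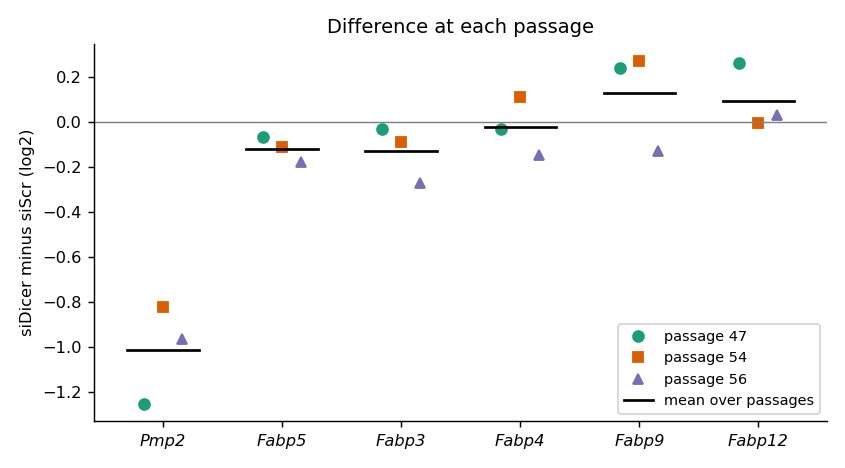
Difference in log2 signal, siDicer minus siScr, within each passage for the 6 genes, with the mean over passages as a black bar. Pmp2 lies between -1.25 and -0.82 at the 3 passages, and every point of the other genes lies between -0.27 and 0.27.

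The Pmp2 signal also varied between passages, though the passage test did not call it. This contrast had no part in choosing the genes. The mean of the siDicer and siScr arrays was 7.90 at passage 47, 7.35 at passage 54 and 7.91 at passage 56, so the level at passage 54 was lower by 0.55 than at passage 47, while passages 56 and 47 differed by 0.013. Passage 54 was the lowest of the 3 in siDicer and in siScr alike. A limma F test of passage with siRNA as a term did not call Pmp2 (adjusted p = 0.0626, range over alternatives 0.022 to 0.453). It called 99 of 5363 genes, a background of 1.85%, and each passage is a single culture history, so the test compares those cultures. Centring each array on its median (adjusted p = 0.022), array weights (0.0331), a stricter dim filter (0.0283), and leaving out siDicer replicate 3 (0.0346) or siScr replicate 3 (0.0304), all in the same limma test, put Pmp2 past the threshold.

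Fabp5 and Fabp3 did not pass the passage test either. Fabp5 averaged 6.89, 6.85 and 7.04 at passages 47, 54 and 56 (limma adjusted p = 0.341), and Fabp3 averaged 5.83, 5.90 and 5.72 (adjusted p = 0.51). In a fit on all 7661 genes the adjusted p was 0.837 for Fabp4, 0.965 for Fabp9 and 0.876 for Fabp12 in the same limma F test.

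The genes around the cluster on chromosome 3 were taken in RefSeq order, 8 protein-coding genes on either side. Of 16 such neighbours 15 had a transcript cluster and 13 were tested, 4 of them higher and 9 lower in siDicer, with a median difference of -0.041 against -0.0092 over all tested genes. Without the block 0 passed (limma, with 1 at an unadjusted p under 0.05, which 8.52% of all tested genes reached), and with passage as a block 0 rose and 1 of 13 fell, Zbtb10, where the background was 1.73% in either direction and 0.597% for lower genes. Zbtb10 encodes a zinc finger transcriptional repressor and is separated from Pmp2 by Zfp704, Pag1 and Fabp5. Its log2 signal was 6.71, 6.91 and 6.90 in siDicer cells at passages 47, 54 and 56, against 7.37, 7.30 and 7.24 in siScr cells. The groups did not overlap, which held for 14.5% of tested genes. Zbtb10 fell by 0.46 with the block (SE 0.077, limma adjusted p = 0.0359, against 0.128 without the block). The call with the block was lost without passage 47 (limma adjusted p = 0.198), without passage 54 (adjusted p = 0.1) and when the dim filter was dropped (adjusted p = 0.0624).

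Genes close to the cluster on either side differed little between siDicer and siScr. Pag1, a membrane adaptor of Src family kinases on the Fabp5 side, was at 0.074, and Impa1, an inositol monophosphatase beyond Fabp12, was at -0.072. Impa1 was lower at all 3 passages, by 0.083, 0.048 and 0.084 in siDicer relative to siScr, and its groups did not overlap, with a gap of 0.029. Zfand1, a zinc finger protein of stress granule clearance, was at -0.18, with passage values of -0.41, -0.18 and 0.065. Neither Pag1, Impa1 nor Zfand1 passed (limma adjusted p = 0.853, 0.808 and 0.661).

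**Figure D3:**
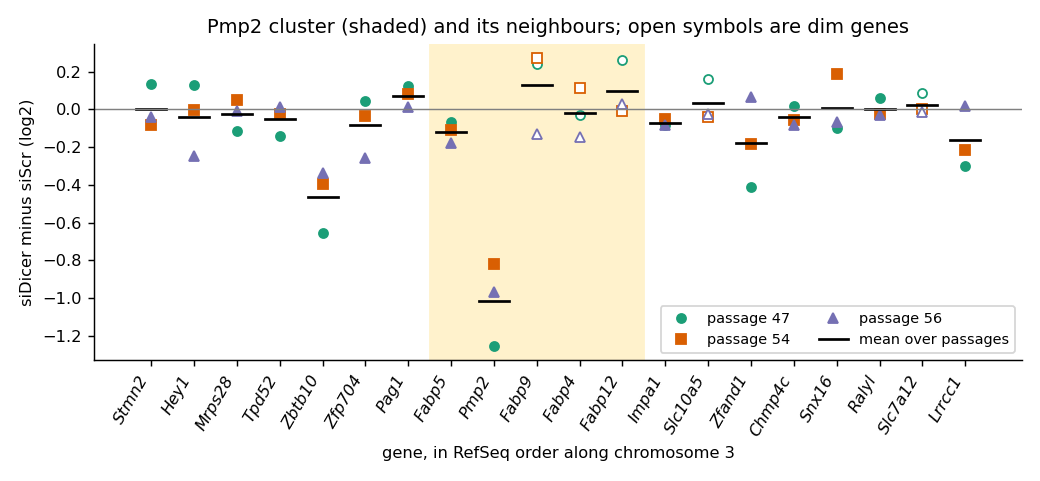
Difference in log2 signal, siDicer minus siScr, of the 5 clustered genes (shaded) and their neighbours in gene order along chromosome 3, at each passage and as the mean (bar), with open symbols for dim genes. Pmp2 at -1.01 and Zbtb10 at -0.46 lie below the others, whose means run from -0.18 to 0.13.

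Other genes that bind, take up, sense, burn or store fatty acids, and genes of myelin, were followed in 6 lists. Of 159 listed genes 44 had a value and 41 were tested, 17 higher and 24 lower in siDicer, with a median difference of -0.014. Without the block 0 of the 41 passed (limma, with 2 at an unadjusted p under 0.05, against 8.52% of all tested genes). With passage as a block 1 of the 41 passed, which is 2.44% against the background of 1.73%, and 5 were at an unadjusted p under 0.05, which 13.8% of all tested genes reached with the block. The groups did not overlap in 6 genes, or 14.6%, against 14.5% of all tested genes. In the passage test 0 of the 41 passed, with 7 at an unadjusted p under 0.05, which 16.1% of all tested genes reached.

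The 1 gene that passed was Rxrg, the retinoid X receptor gamma, which pairs with receptors that respond to retinoids and fatty acids. Its log2 signal was 6.06, 6.06 and 6.20 in siDicer cells at passages 47, 54 and 56, against 6.54, 6.40 and 7.01 in siScr cells, with no overlap. It fell by 0.54 on the log2 scale with passage as a block (SE 0.092, limma adjusted p = 0.0379, and adjusted p = 0.286 without the block). This call was lost without passage 47 (limma adjusted p = 0.198) and when the dim filter was dropped (adjusted p = 0.0673). The other 2 tested lipid-sensing receptors were Rxra, at 0.037, and the oxysterol receptor Nr1h3, at -0.057, neither of which passed.

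Among genes of fatty acid uptake and activation 7 were tested, 2 of them higher and 5 lower in siDicer around a median of -0.041, with 0 passing with or without the block (limma, with 2 and 0 at an unadjusted p under 0.05, against 13.8% and 8.52% of all tested genes). Dbi, which binds acyl-CoA in the cytosol, was the highest, with mean log2 signals of 7.56 in siDicer and 7.39 in siScr, a difference of 0.18 ± 0.090 (SE). Acbd5, an acyl-CoA binding protein of peroxisomes, was the lowest at -0.17 ± 0.074 (SE). Scp2, a sterol and lipid carrier of peroxisomes, was at -0.13, and Slc27a3, an acyl-CoA synthetase of the fatty acid transport protein family, was at -0.079. The groups did not overlap in 2 of the 7, Acbd5 and Scp2 (gap 0.0052), against 14.5% of all tested genes. Of the intracellular lipid-binding relatives 1 gene was tested, the retinoic acid carrier Crabp2, at -0.039 with overlapping groups, while the intestinal Fabp2 was dim.

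Of 9 tested genes of fatty acid oxidation, 3 were higher and 6 lower in siDicer, and the median was -0.027. The largest difference was that of Decr1, the mitochondrial dienoyl-CoA reductase, whose mean log2 signal was 7.97 in siDicer and 8.18 in siScr, a difference of -0.21 ± 0.087 (SE) that did not pass (limma adjusted p = 0.571). Acadm, the medium-chain acyl-CoA dehydrogenase, was at -0.13, the peroxisomal transporter Abcd3 at -0.12 and Etfdh, which passes electrons from acyl-CoA dehydrogenases to ubiquinone, at 0.046. With or without the block 0 members passed (limma, with 1 of 9 at an unadjusted p under 0.05 in each, against 13.8% and 8.52% of all tested genes).

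Of 12 tested genes of fatty acid synthesis, storage and lipolysis, 8 were higher and 4 lower in siDicer, and the median was 0.022. Agpat2, which makes phosphatidic acid, was the highest, with mean log2 signals of 7.89 in siDicer and 7.72 in siScr and a difference of 0.17 ± 0.077 (SE). Plin2, the coat protein of lipid droplets, was the lowest, with means of 8.94 in siDicer and 9.08 in siScr and a difference of -0.14 ± 0.069 (SE). Acss1, a mitochondrial acetyl-CoA synthetase, was at 0.061. The groups of these 3 of 12 genes did not overlap, against 14.5% of all tested genes, and 0 members passed with or without the block (limma, with 1 and 0 at an unadjusted p under 0.05, against 13.8% and 8.52% of all tested genes).

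Myelin and Schwann cell genes differed little between siDicer and siScr. Of 9 tested members 3 were higher and 6 lower, and the differences ran from -0.12 to 0.067 with a median of -0.023. Groups without overlap were found in 0 of them, against 14.5% of all tested genes. With or without the block 0 passed (limma, with 0 at an unadjusted p under 0.05 in each, against 13.8% and 8.52% of all tested genes). Cldn11, a claudin of myelin tight junctions, was at -0.12, Mal, a proteolipid of myelin membranes, at -0.058, the myelin-associated protein Ncmap at 0.045, and Pou3f2, a POU domain transcription factor of Schwann cells, at 0.067. Over the 3 Schwann cell markers with a value, Ncmap, Cldn19 and Pou3f1, the mean log2 signal ran from 5.89 to 5.99 over the siDicer arrays and from 5.90 to 6.03 over the siScr arrays. Their part in the Pmp2 difference was not tested.

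**Figure D4:**
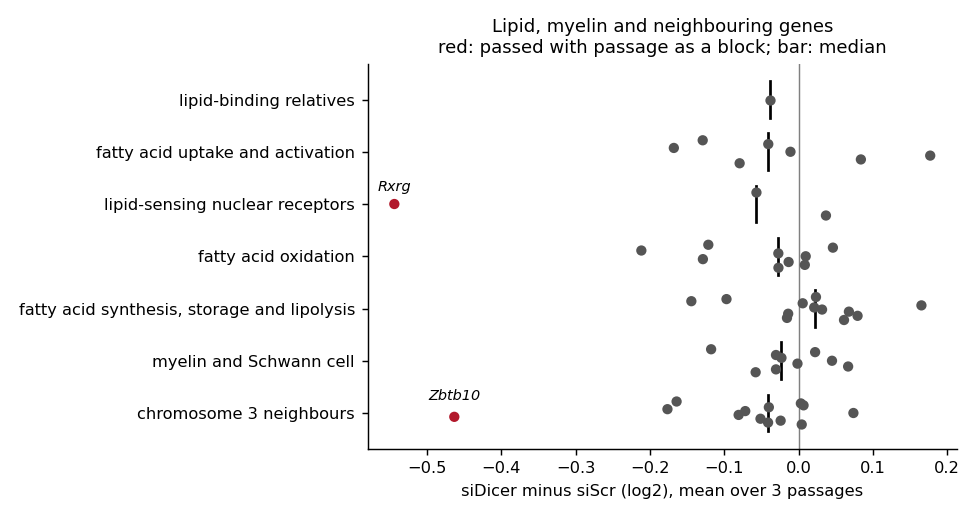
Difference in log2 signal, siDicer minus siScr (mean over 3 passages), of each tested gene of the 6 lipid and myelin lists and of the chromosome 3 neighbours, with list medians as bars. Red points, Rxrg at -0.54 and Zbtb10 at -0.46, passed with passage as a block, and list medians lie between -0.057 and 0.022.

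Markers of other cell types differed by little between the groups. Over 9 leukocyte markers the mean log2 signal ran from 4.43 to 4.51 over the siDicer arrays and from 4.44 to 4.53 over the siScr arrays. Of these 9 markers 7 were above the dim threshold and 2 were dim, among them the defining gene Ptprc at 2.84 in each group. The ranges were 4.80 to 4.90 in siDicer and 4.75 to 4.96 in siScr for 7 keratinocyte markers, and 4.86 to 5.07 in siDicer and 4.90 to 5.11 in siScr for 4 fibroblast markers. For 5 endothelial markers they were 4.03 to 4.11 in siDicer and 4.04 to 4.13 in siScr. The 1 adipocyte marker with a value, Pck1, ran from 4.90 to 5.01 in siDicer and from 4.95 to 5.06 in siScr. Of these 26 markers 10 were dim and 16 were tested. With or without the block 0 of the 16 passed (limma, with 2 and 1 at an unadjusted p under 0.05). Of all tested genes 13.8% and 8.52% reached that unadjusted p with and without the block. In bulk RNA, fewer cells of a type and less RNA per cell cannot be told apart.

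The genes whose profile over the 6 arrays was most like that of Pmp2 were found by the root mean square distance between log2 signals after subtracting each gene's mean, among 3532 tested protein-coding genes. The nearest was Trp53inp1, a stress protein induced by p53, at a distance of 0.12, where the median gene lay at 0.58. Its log2 signal was 6.92, 6.74 and 7.02 in siDicer cells at passages 47, 54 and 56, against 8.09, 7.60 and 7.91 in siScr cells, so it shared with Pmp2 the lower siDicer level and the lowest level at passage 54 in each group. Ugcg, the glucosylceramide synthase, followed at 0.25, then the alcohol dehydrogenase Adhfe1 at 0.26, the proton pump subunit Atp6v0d2 at 0.27 and Tmem131, which takes part in collagen secretion, at 0.27. Tmem131 lacked the passage pattern, with 8.66, 8.71 and 8.70 in siDicer and 9.63, 9.55 and 9.54 in siScr. The measure picks genes that are lower in siDicer by construction.

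By the same measure, none of the relatives of Pmp2 was among its 5 nearest profiles. Fabp5 lay at a distance of 0.51, with 9.43% of the 3532 genes nearer, Fabp3 and Fabp4 at 0.56, with 31.9% nearer, Fabp12 at 0.64, with 86.1% nearer, and Fabp9 at 0.65, with 88.4% nearer. A gene with no variation at all would lie at 0.58. These distances therefore mostly restate the small differences of the relatives beside that of Pmp2 and are no separate result.

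**Figure D5:**
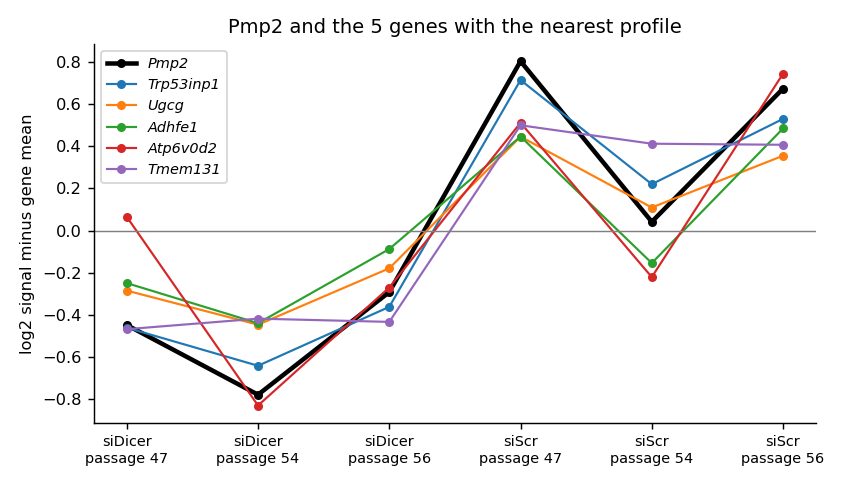
Log2 signal minus the gene's mean on each of the 6 arrays, siDicer left and siScr right with passages in order, for Pmp2 (black) and the 5 genes at the smallest root mean square distance. Trp53inp1 follows Pmp2 at a distance of 0.12, and the others lie at 0.25 to 0.27.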

How the data were processed

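The deposited values are log2 signals per transcript cluster of Affymetrix Clariom D mouse arrays, already on a common scale; the submitters' processing notes name Affymetrix Expression Console, while no summarisation method, annotation release or build is given in the sources used here, and coordinates are left out. The log2 scale was read from the values (1.70 to 13.70), and the centring is unknown beyond the array medians. Scanner files were not used, and probe sequences were not compared between the related genes. The table covers chromosomes 1 to 4 (16383 clusters, 7717 with 1 gene, 268 with several and 8398 with none); 320 symbols were updated through RefSeq. The brightest cluster of each gene was kept. The comparisons used limma 3.58.1 under R 4.3.3 (lmFit, then eBayes with trend, two-sided, Benjamini-Hochberg over 5363 genes, threshold 0.05). The code was also run on simulated data with set shifts in some genes and independent noise on each array. Such noise is not shared within a passage, so that run is no check of the block on these data. Replicate numbers pair the samples because the labels give each number 1 passage shared by siDicer and siScr; deviations from group means correlated at 0.42, 0.62 and 0.070 for passages 47, 54 and 56. P-values set a difference against the spread between these samples of 1 cell line, not between independent sources of melanocytes. The number of samples limits the precision.

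The members, the lists and the tests were chosen with earlier results of these data known. Named genes were the 6 members, up to 4 genes per list (those that passed, then by smallest p), any neighbour, and the 5 nearest profiles; Kcnj13 was named after its value was seen. The marker genes Tyrp1, Pax3, Slc24a5, Ptprc, Pck1, Cldn19 and Pou3f1 were named to check cell types.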

Additional observations from a re-analysis of the deposited data

How the results depend on the processing

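Of the 78 recomputed differences of the 6 genes, and of 125 recomputed list medians, all moved by less than 1 SD between replicates. The dim filter, the trend and the passage block over all 6 arrays cannot change a gene's difference. With 3 arrays per group, leaving out 1 array cannot move a gene's difference by 1 SD pooled over the groups. All of these alternatives are the same by construction and are no check of the difference. Pmp2 ran from -1.25 to -0.87 over its alternatives, and was at -1.19 with array weights. The count of genes called between siDicer and siScr was 1, against 93 with the replicate block, 14 with array weights, and 0 to 2 with 1 array left out (0 without siDicer replicate 3, 2 without siScr replicate 2). Chosen after seeing the data, the replicate block gave 22 with dim genes kept in, and 3, 19 and 153 without passages 47, 54 and 56. The passage test called 99 genes, against 165 with array weights, 172 with the filter at the 50th percentile, 202 after median centring, 58 with dim genes kept in, and 13 to 311 with 1 array left out (13 without siDicer replicate 1, 311 without siScr replicate 3). The stricter filter tests fewer genes, and leaving out an array leaves 1 passage in a single group; the cause of the other shifts was not tested. In 5 of 42 recomputed passage tests of the 6 genes, all of Pmp2, the side of the threshold changed, while without siScr replicate 2 its limma adjusted p was 0.453. Signal over background could not be measured, so passing the dim filter does not show that a transcript was detected. Of 26 markers of other cell types 16 passed it, with a mean of 6.90 over the arrays for 1 keratinocyte marker, while Fabp3 lay at 5.82. This limits statements on Fabp3, Fabp4, Fabp9 and Fabp12, and on other genes at similar signals.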
